A study of Zea mays with 6 samples.

Results

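AM1 (ameiotic1) is a maize gene that germ cells need to enter meiosis. It was measured by 3 array probes, A_92_P001166, A_92_P016751 and A_92_P038130, which are all of the probes named exactly AM1 among 42034 maize probes on each of 3 two-colour Agilent arrays. These probes carry 39174 distinct sequence names, of which AM1 is 1. The arrays carried 6 RNA samples in 4 groups. W23 pre-meiotic cells were cut by laser microdissection from wild-type anthers of the inbred line W23 (2 samples), and whole anthers of W23 at the same stage, which hold the pre-meiotic cells together with the somatic layers, were their counterpart (2 samples). The titles give these anthers a length of 700 µm, and another label gives 701 µm for replicate 2 of both groups. A mac1 mutant was set against a mac1 heterozygote, with pre-meiotic cells of both microdissected from anthers 1 mm long (1 sample each). The design text calls the heterozygote wild type, and the labels give no line name for either mac1 sample.

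The AM1 protein is a plant-specific coiled-coil protein. In am1 mutants of maize the cells that should begin meiosis usually divide by mitosis instead, and some alleles allow a start of meiosis that stops in early prophase. Its best known relative is SWI1, also called DYAD, of Arabidopsis, which acts on cohesion of sister chromatids and on meiotic progression there. MAC1 acts earlier, in the step that limits how many cells of the young anther become archesporial, the precursors of meiocytes. In the reference gene table AM1 is the protein-coding gene LOC100271891, with the synonym GRMZM5G883855.

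On each array 1 W23 sample of each kind, or the mutant and the heterozygote, were hybridised together in different dyes. Replicate 1 had pre-meiotic cells in Cy3 and whole anthers in Cy5, replicate 2 had the opposite, and the mac1 array had the mutant in Cy5 and the heterozygote in Cy3. Across all probes, 73.9% and 77.7% were well above background in W23 pre-meiotic cells, 84.3% and 82.5% in whole anthers, 64.4% in the mutant and 72.9% in the heterozygote. Dissected cells and whole anthers also differed in how their RNA was extracted, so cell type and preparation cannot be told apart. Of the marker genes listed for checking cell types, 14 of the somatic anther layers and 9 of photosynthetic tissue had 0 probes with their name, and of 5 listed for pre-meiotic and meiotic cells AM1 alone had one. The precision of the values below is limited by the number of arrays, and since nothing says that replicates came from separate plants or extracts, the spread between them may be technical.

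AM1 was detected in every sample. Each of its 3 probes was called well above background by the scanner software in all 6 samples, no AM1 spot was saturated, and none was flagged as an outlier. The signals were low in scanner units all the same. Spot signals, which are the median pixel intensity in scanner units before any correction, ran from 46.5 to 118.5, over local backgrounds of 17 to 37.5. The median spot of all probes was 48 and 57.5 in W23 pre-meiotic cells, 51 in the mutant and 40 in the heterozygote. Every AM1 spot in these samples lay above it. In whole anthers, with median spots of 79 and 69, every AM1 spot lay below it.

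Probe A_92_P038130 gave spot signals of 77 and 118.5 in W23 pre-meiotic cells, 53 and 46.5 in whole anthers, 89 in the mac1 mutant and 111 in the heterozygote. Its local backgrounds in the same order of samples were 18 and 32.5, 30 and 17, 37, and 24. Both pre-meiotic W23 samples were brighter than both whole-anther samples, and both mac1 samples were too.

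Probe A_92_P016751 gave 94 and 97 in W23 pre-meiotic cells, 53 and 47 in whole anthers, 81 in the mac1 mutant and 66 in the heterozygote. Its backgrounds were 19 and 33.5, 36.5 and 20.5, 37, and 22. Again every dissected sample lay above both whole-anther samples. The share of all probes with this order in uncorrected signals was not counted.

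Probe A_92_P001166 behaved differently in the uncorrected signals, at 62 and 68 in W23 pre-meiotic cells, 74 and 55 in whole anthers, 70.5 in the mac1 mutant and 65 in the heterozygote. Its backgrounds were 19 and 34, 37.5 and 19, 37, and 22. Here the W23 groups overlapped. Within Cy5 the pre-meiotic sample was the dimmer, at 68 against 74 in whole anthers, and within Cy3 it was the brighter, at 62 against 55 in whole anthers. The median spot over all probes was also dimmer in pre-meiotic cells, at 57.5 against 79 in whole anthers within Cy5 and at 48 against 69 in whole anthers within Cy3, and normalization takes this into account.

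**Figure D1:**
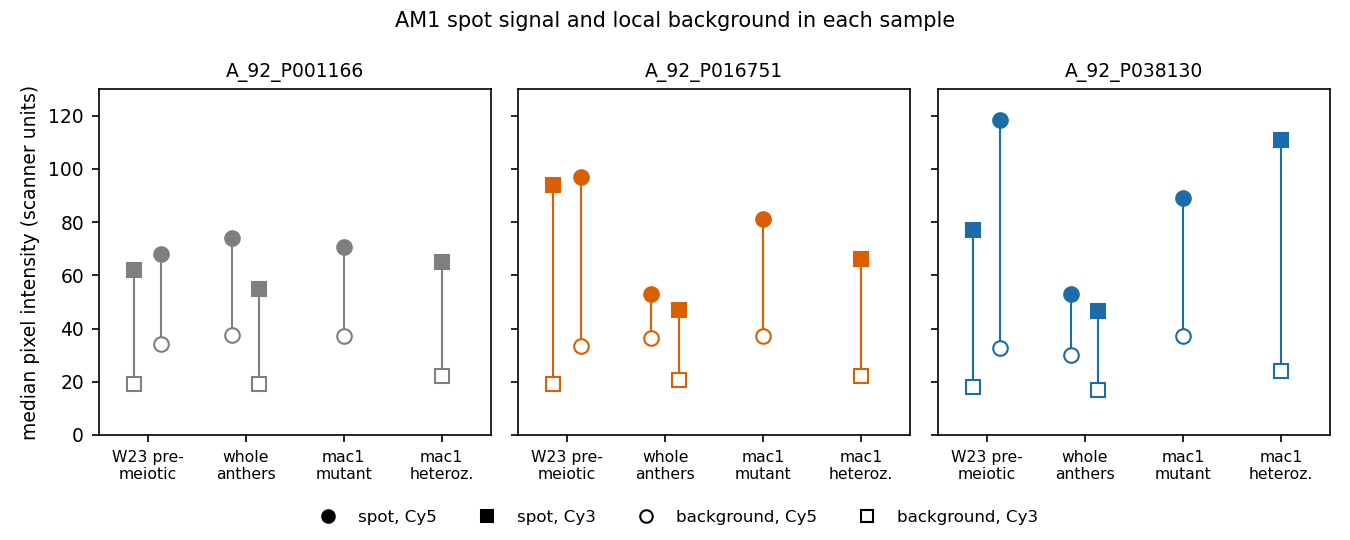
Median pixel intensity of the AM1 spots (filled) and of their local background (open) in each of the 6 samples, in scanner units, by probe. Circles are Cy5 and squares Cy3, and in the W23 groups replicate 1 is on the left. The whole-anther spots of A_92_P016751 and A_92_P038130 reach no more than 53, below every dissected sample, while those of A_92_P001166, at 74 and 55, span the dissected samples.

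For A_92_P016751 and A_92_P038130 both whole-anther samples had a smaller margin over the background, in SDs of the background pixels, than any dissected sample. How many of all probes shared this was not counted. For A_92_P001166 the whole-anther margins, 5.01 and 6.31 SDs, lay above W23 pre-meiotic replicate 2 (4.03) and the mac1 mutant (3.84). Over the 3 probes, the difference between spot and background was 4.03 to 15.6 times the SD of the background pixels in W23 pre-meiotic cells, against 1.28 to 6.49 times in whole anthers (6 spot measurements each). It was 3.84 to 7.52 times in the mutant and 7.17 to 15.2 times in the heterozygote. The lowest value, 1.28, belonged to A_92_P016751 in whole anthers replicate 1, where the background pixels had an SD of 12.9. The software's background-subtracted signals, in the same units, were low in whole anthers for A_92_P038130 and A_92_P016751. A_92_P038130 kept 39.2 and 75.8 in W23 pre-meiotic cells and 10.4 and 7.31 in whole anthers, and A_92_P016751 kept 56.4 and 55.9 in W23 pre-meiotic cells and 11 and 8.98 in whole anthers. For A_92_P001166 the corresponding signals were 25.6 and 28.1 in W23 pre-meiotic cells and 30.1 and 19.4 in whole anthers, so subtraction alone did not part the groups for this probe.

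The first comparison asked how AM1 transcript differs between pre-meiotic cells and the whole anther. All 3 probes were higher in W23 pre-meiotic cells, on both arrays. Among all 33646 tested probes 15.1% were called higher by the same test, limma on both arrays with Benjamini-Hochberg adjustment. Normalized levels are log2 intensities after background correction with an offset of 50, loess within arrays and scaling between arrays. A_92_P038130 had levels of 6.78 and 7.03 in W23 pre-meiotic cells against 5.83 and 5.77 in whole anthers. A_92_P016751 had levels of 7.01 and 6.79 in W23 pre-meiotic cells against 5.67 and 5.77 in whole anthers. A_92_P001166 had levels of 6.51 and 6.39 in W23 pre-meiotic cells against 6.08 and 6.02 in whole anthers. The groups did not overlap on any of the 3 probes, which was also true in the same direction of 31.2% of the tested probes.

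For A_92_P016751 the log2 ratio of pre-meiotic cells over whole anthers was 1.18 ± 0.121 (SE, 2 arrays), a 2.26-fold difference with a 95% interval of 1.84 to 2.78 (limma adjusted p = 0.00111). A_92_P038130 was nearly as far apart, at 2.15-fold with an interval of 1.75 to 2.65 (limma adjusted p = 0.00137). A_92_P001166 was 1.32-fold higher with an interval of 1.11 to 1.57 (limma adjusted p = 0.0285). By size of the log2 ratio, highest first, these probes stood at places 657, 784 and 4923 of the 33646 tested. Whole anthers contain pre-meiotic cells too, so the ratio compares these cells with a mixture that includes them, and in such a mixture fewer cells of a type and less RNA per cell cannot be told apart.

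The dyes were swapped between the arrays, so the groups can also be set against each other within each dye. In Cy5, pre-meiotic replicate 2 exceeded whole anthers replicate 1 by 1.12 for A_92_P016751, 1.2 for A_92_P038130 and 0.30 for A_92_P001166 in log2 level. In Cy3, pre-meiotic replicate 1 exceeded whole anthers replicate 2 by 1.24, 1.01 and 0.49 for the same probes. Every within-dye difference was above 0, which follows from the groups not overlapping in these same levels and is no separate check.

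**Figure D2:**
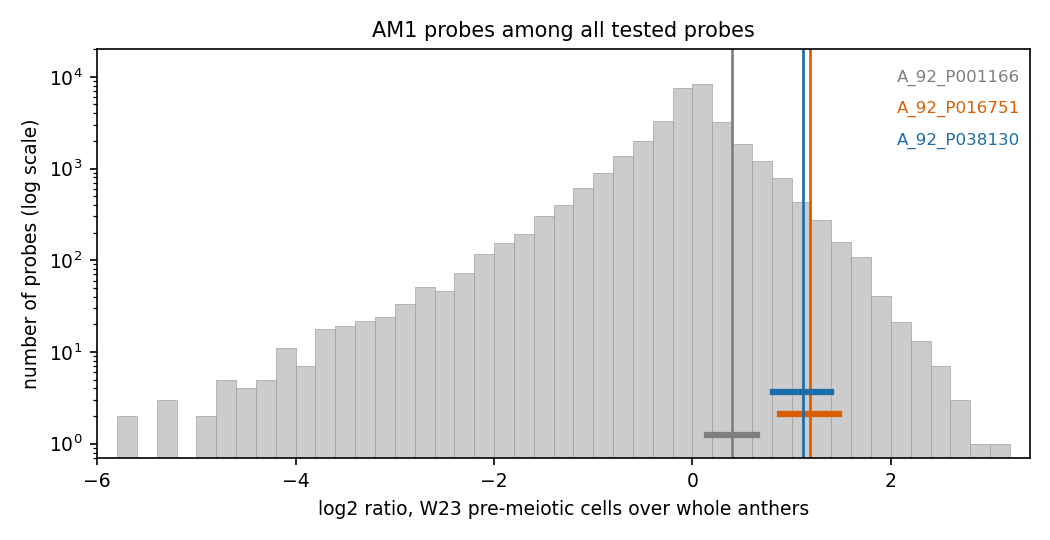
Log2 ratios of W23 pre-meiotic cells over whole anthers for the 33646 tested probes (grey bars, number of probes on a log scale) with the 3 AM1 probes as vertical lines and their 95% limma intervals as thick horizontal bars near the base. A_92_P016751 and A_92_P038130 lie in the upper tail at 1.18 and 1.11, and A_92_P001166 at 0.40 is closer to the centre.

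The probes agreed in direction and differed in size. On replicate 1 the log2 ratio was 1.34 for A_92_P016751, 0.95 for A_92_P038130 and 0.43 for A_92_P001166, and on replicate 2 it was 1.02, 1.27 and 0.37. A_92_P001166 minus A_92_P016751 was thus -0.91 and -0.65 on replicates 1 and 2, and A_92_P001166 minus A_92_P038130 was -0.52 and -0.90. The other two probes changed places between the arrays, at 0.39 and -0.25 for A_92_P016751 minus A_92_P038130. The interval of the A_92_P001166 log2 ratio, 0.15 to 0.65, does not reach those of A_92_P016751 (0.88 to 1.48) and A_92_P038130 (0.81 to 1.40), but with 2 arrays the difference between probes itself was not tested. Over the 6 samples the log2 levels of the probe pairs had Pearson correlations of 0.886 to 0.94, a description over samples that share 3 arrays. Each AM1 probe was a single spot and the closest pair lay 196 rows apart on the array, so neighbouring spots were not shared. Where each probe lies on the AM1 transcript is not used here.

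How many times higher AM1 was depended strongly on how the background was handled. Adding 50 to every corrected intensity draws the ratios of dim spots towards 0, and with offsets of 50, 16 and 0 the fold of A_92_P016751 was 2.26, 3.86 and 7.51 and that of A_92_P038130 was 2.15, 3.45 and 6.02. For A_92_P001166 the same offsets gave 1.32, 1.61 and 2.09. With an offset of 0 the intervals were wide, from 4.51 to 12.5 for A_92_P016751 and from 4 to 9.05 for A_92_P038130, and all 3 probes were called, as were 9.1% of the tested probes in that direction (limma adjusted p = 0.00964, 0.00852 and 0.0312 for A_92_P016751, A_92_P038130 and A_92_P001166). The places among the tested probes moved with it, to 13 for A_92_P016751, 40 for A_92_P038130 and 2267 for A_92_P001166.

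The scanner software's processed signals, which are background-subtracted and dye-normalized and carry no offset, gave the highest folds. A_92_P038130 stood at 899 ± 97.5 and 1040 ± 107 in W23 pre-meiotic cells and at 61 ± 10.9 and 60.2 ± 16.1 in whole anthers (intensity ± the software's own error for the spot). A_92_P016751 stood at 822 ± 85.7 and 549 ± 57.4 in W23 pre-meiotic cells and at 41.3 ± 7.98 and 53.9 ± 12.1 in whole anthers. A_92_P001166 stood at 553 ± 65.7 and 394 ± 46.4 in W23 pre-meiotic cells and at 174 ± 17.6 and 159 ± 21.8 in whole anthers. The groups did not overlap on any of the 3 probes, as was true in the same direction of 33.3% of the tested probes on these signals. The spot errors hold no spread between samples. After median centring of each array, A_92_P038130 took place 1 and A_92_P016751 place 4 of the 33646 tested probes, with 95% intervals of the fold from 9.45 to 23.9 and from 6.02 to 29.9 (limma adjusted p = 0.0468 for both, in a fit that called 3.17% of the tested probes higher). A_92_P001166 took place 1929 and was not called (limma adjusted p = 0.0568).

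The authors' deposited value table holds 1 intensity per sample. Its values for A_92_P038130 were 96.3 and 129 in W23 pre-meiotic cells and 42.4 and 42.7 in whole anthers. For A_92_P016751 they were 122.7 and 103.7 in W23 pre-meiotic cells and 40.6 and 44 in whole anthers, and for A_92_P001166 they were 79.5 and 71.2 in W23 pre-meiotic cells and 57.7 and 52.6 in whole anthers. As listed, the ratios of these values on replicates 1 and 2 were 2.27 and 3.02 for A_92_P038130, 3.02 and 2.36 for A_92_P016751, and 1.38 and 1.35 for A_92_P001166. The groups did not overlap on any of the 3, which was also so in the same direction for 23.8% of the tested probes in this table. On log2(value + 50) with each array centred on its median, which understates the change of low values, the folds were 1.75, 1.77 and 1.19, and none of the 3 probes passed the threshold in limma (adjusted p = 0.0735, 0.0609 and 0.135), a fit in which 3.36% of the tested probes were called higher. With median centring in place of loess, where 2.15% of the tested probes were called higher and 93.6% of all calls were lower (56.3% with loess), A_92_P016751 and A_92_P038130 were still called at 2.01-fold and 1.89-fold (limma adjusted p = 0.00207 and 0.00345). A_92_P001166 was not, at 1.21-fold (limma adjusted p = 0.258). The call of A_92_P001166 was also lost when any 1 of the 4 W23 samples was left out of a fit to the separate channels, at log2 ratios of 0.34 to 0.46 (limma adjusted p = 0.0952 to 0.17).

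**Figure D3:**
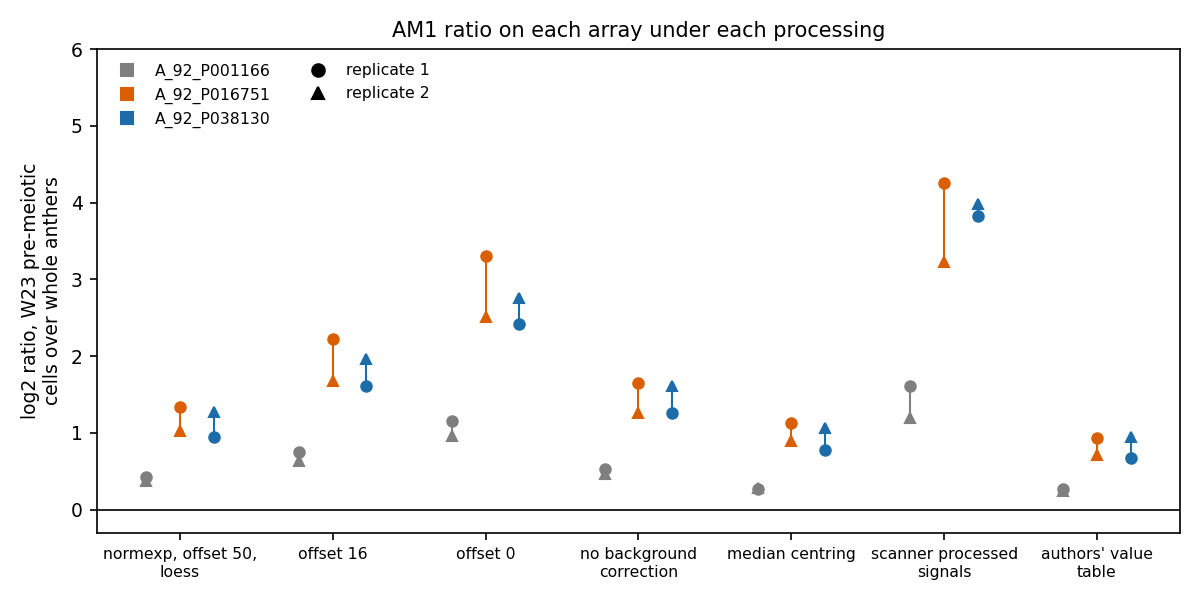
Log2 ratio of W23 pre-meiotic cells over whole anthers for each AM1 probe (colour) on replicate 1 (circle) and replicate 2 (triangle) under 7 ways of processing the arrays, joined by a line. All points lie above 0, A_92_P001166 is the lowest probe throughout, and the ratios run from 0.24 for A_92_P001166 in the authors' table to 4.26 for A_92_P016751 in the scanner's processed signals.

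The second comparison asked what loss of mac1 function changes in pre-meiotic cells. AM1 showed no 2-fold difference between the genotypes. A_92_P001166 had log2 levels of 7.03 in mutant cells and 6.97 in heterozygote cells, A_92_P016751 had 7.23 in mutant cells and 7 in heterozygote cells, and A_92_P038130 had 7.41 in mutant cells and 7.60 in heterozygote cells. The log2 ratios of mutant over heterozygote were 0.06, 0.23 and -0.18, so the probes did not share a direction. The mutant exceeded the heterozygote by 2-fold or more on 0.781% of 32266 measured probes and fell short of it by as much on 0.555%. The log2 ratios of all measured probes had an SD of 0.293. All 3 AM1 values lie within that SD. By place, A_92_P001166 stood above 65.8% of the measured probes, A_92_P016751 above 87.9% and A_92_P038130 above 17.1%. There was 1 sample per genotype and no dye swap, so no test could be made. For scale, the log2 ratio of the same probes differed between the W23 arrays with an SD of 0.0455, 0.226 and 0.227.

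Without the offset the mutant over heterozygote log2 ratios were 0.12 for A_92_P001166, 0.47 for A_92_P016751 and -0.33 for A_92_P038130, and on median-centred processed signals they were -0.037, 0.29 and -0.61. None reached 2-fold. Subtracting each probe's mean Cy5 over Cy3 ratio on the swapped W23 arrays gave 0.09, 0.39 and -0.34. With 2 swapped arrays, that mean and the SD between the W23 arrays come from the same difference. A dye effect and replicate spread cannot be told apart in either.

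Set side by side, the 4 groups had whole anthers lowest on every probe. Above them the scaled levels ran, for A_92_P038130, from 6.91 ± 0.182 in W23 pre-meiotic cells (SD, n = 2) through 7.41 in the mutant to 7.6 in the heterozygote, with whole anthers at 5.80 ± 0.0443 (SD, n = 2). For A_92_P016751 the levels were 6.90 ± 0.156 in W23 pre-meiotic cells, 7.23 in the mutant and 7 in the heterozygote, with whole anthers at 5.72 ± 0.0692. The heterozygote sat inside the range of the W23 pre-meiotic replicates on this probe, which were 6.79 and 7.01. For A_92_P001166 they were 6.45 ± 0.0885 in W23 pre-meiotic cells, 7.03 in the mutant and 6.97 in the heterozygote, with whole anthers at 6.05 ± 0.0431.

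Whether the mac1 samples lay above W23 pre-meiotic cells depended on the scaling between arrays. The mac1 array was dimmer over all probes, with a median spot of 51 in the mutant and 40 in the heterozygote. Without scaling, the log2 level of the mutant minus the mean of W23 pre-meiotic cells was -0.09, -0.38 and -0.27 on A_92_P001166, A_92_P016751 and A_92_P038130, and that of the heterozygote was -0.15, -0.61 and -0.088. With scaling, the mutant differences were 0.58, 0.33 and 0.51, and the heterozygote differences 0.52, 0.10 and 0.69. Quantile scaling of the 6 channels gave 0.58, 0.39 and 0.54 in the mutant and 0.52, 0.12 and 0.76 in the heterozygote. Which of these is nearer to the true levels was not tested. Anther length, genotype, slide and scan all changed between these samples and cannot be told apart. Against whole anthers, both mac1 samples were higher on every probe either way, by 0.31 to 0.84 in the mutant and 0.25 to 1.02 in the heterozygote without scaling, and by 0.98 to 1.61 in the mutant and 0.92 to 1.80 in the heterozygote with it.

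**Figure D4:**
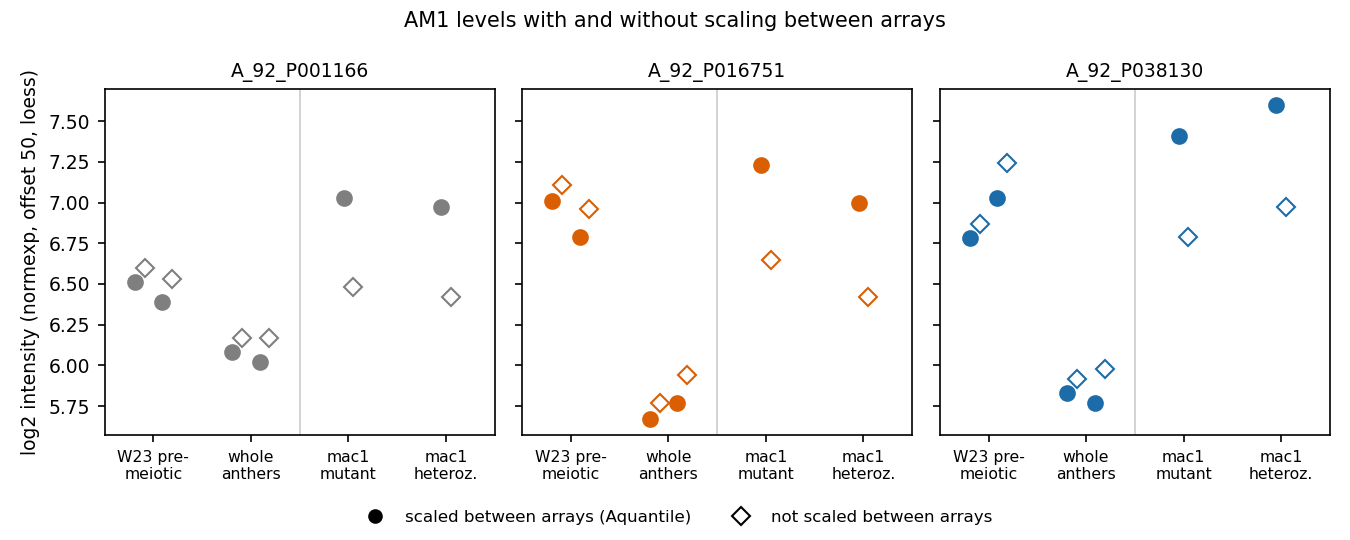
Log2 intensity of each AM1 probe in the 6 samples, with scaling between arrays (filled circles) and without (open diamonds). The vertical line parts the W23 arrays from the mac1 array, and replicate 1 is on the left in each W23 group. Whole anthers are lowest in all panels, while the mac1 samples lie above the W23 pre-meiotic mean only when the arrays are scaled.

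Of 42 other genes listed for meiotic entry and meiotic chromosomes, only 4 had a probe that could be matched by name or accession. Whether the others were on the array under other names was not checked. The 4 matched genes had 14 probes, of which 13 were tested in W23. These were ZmSMC1 and ZmSMC3, which form the cohesin ring, ZmRAD21, its kleisin subunit, and ZmSGO1, a shugoshin that protects cohesion at centromeres. All 4 belong to cohesin or its protection, so their values do not cover the other listed genes. None of the 4 was called higher with AM1. Of the 13 tested probes 0 were called higher and 4 lower in limma, against 15.1% and 19.5% of all tested probes, and their median log2 ratio was -0.10 against -0.0085 for all tested probes. The 4 lower probes were 1 of the 2 for ZmSMC1, at -0.71, and 3 of the 4 for ZmSMC3, at -0.64 to -0.88. ZmRAD21, with 6 tested probes, ranged from -0.28 to -0.0049, and the single ZmSGO1 probe was at 0.061. With median centring 7 of the 13 were called lower, and so were 10614 of all 33646 tested probes. With an offset of 0 only 2 were called lower, and 5103 of all tested probes. On the mac1 array the log2 ratios of their 11 measured probes, mutant over heterozygote, ran from -0.40 to 0.023, with a median of -0.18. The median of all 32266 measured probes was -0.00964. With 1 sample per genotype and no dye swap, this difference was not tested.

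The probes whose levels followed AM1 most closely were sought over the 6 samples among 24029 probes well above background in all 4 dissected samples. Likeness was the root mean square difference between profiles, each centred on its own mean, with the 3 AM1 probes averaged. That AM1 profile was 0.16 and 0.13 in W23 pre-meiotic cells, -0.74 and -0.75 in whole anthers, 0.62 in the mutant and 0.58 in the heterozygote. The 5 closest were the expressed-sequence clusters TC307496, TC305221, TC300815, TC299647 and TC301864, at differences of 0.0413 to 0.065 against a median of 0.576 over all candidates, and with Pearson correlations of 0.995 to 0.998 over 6 samples that share 3 arrays. Their log2 ratios of W23 pre-meiotic cells over whole anthers were 0.80 to 0.97. These ratios, like the small differences and high correlations, follow from how the probes were chosen. Of the 24029 candidates, 44 had a difference under 0.1 and 97 had a correlation of at least 0.99, so these 5 were not alone. The choice was not stable, since 1 of the 5 stayed with an offset of 0, 1 with correlation as the measure and 1 without scaling between arrays.

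**Figure D5:**
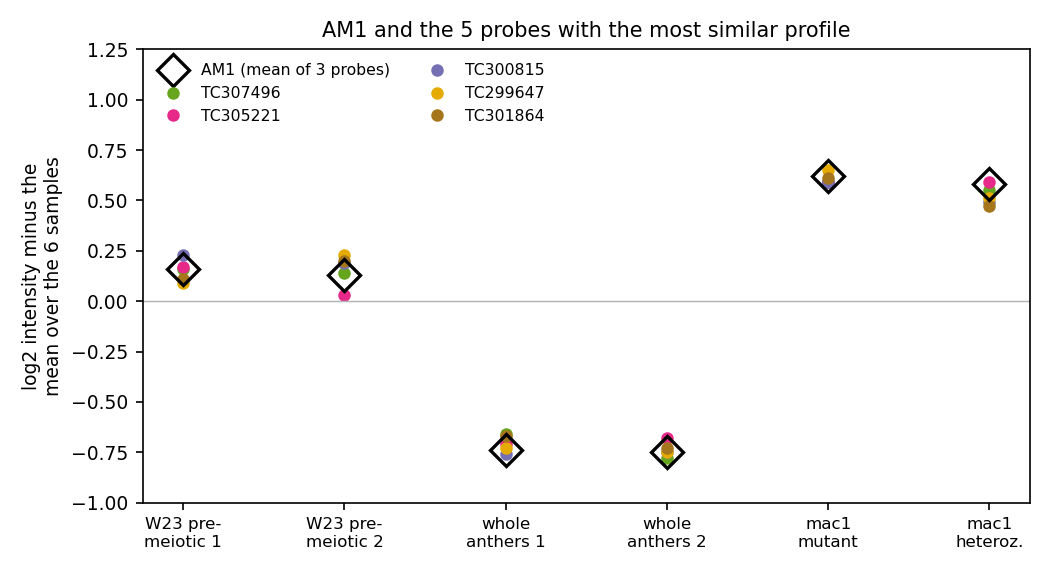
Log2 intensity minus its mean over the 6 samples for AM1 (black diamonds, mean of 3 probes) and for the 5 probes with the closest profile (coloured circles), with scaling between arrays. All 6 lie between -0.66 and -0.78 in whole anthers and between 0.47 and 0.65 in the mac1 samples.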

How the data were processed

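Per the file headers, each deposited scanner file holds 1 two-colour array read with Agilent Feature Extraction 10.5.1.1. The deposited intensity columns used are median spot signals, median local backgrounds and the software's processed signals (background-subtracted and dye-normalized), with the software's 0 or 1 flags. Limma 3.8.3 and R 2.13 are named in the submitters' processing notes without their roles. The authors' deposited value table is an intensity per sample on a linear scale. Each of its columns correlated best with its own channel, at 0.995 to 0.999 in log2, its column medians were 43.8 to 63.6, and its scaling between arrays stays unknown.

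Here, R 4.3.3 and limma 3.58.1 were used. Median signals were background-corrected by normexp with an offset of 50 and normalized by loess within arrays, with control and outlier-flagged spots (8, 11 and 12 probe spots on arrays 1, 2 and 3) at weight 0. Levels were scaled between arrays by Aquantile. A probe was tested in W23 if both samples of at least 1 group were well above background (33646 probes). The W23 log ratios were fitted with lmFit and eBayes, with 1 residual and 4.87 prior degrees of freedom, Benjamini-Hochberg adjustment and a threshold at 0.05. Averaging the swapped arrays removes a dye effect from the ratio, not from the residual. The log ratio pairs the samples that share an array, which per the design text also came from the same plants. Differences between replicates 1 and 2 correlated at 0.406 between the groups across tested probes. The mac1 comparison has no test. The fit was checked on simulated arrays.

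The AM1 probes and the gene lists were chosen with earlier results of these data known. Listed genes were matched by symbol or synonym to probe names, and through the reference table to accessions. Named are all AM1 probes, every listed gene with a probe, and the 5 probes closest to AM1. Alternatives were other offsets, background handling, normalization, filters, variance prior, value table, fits without the pairing, and leaving out each sample. Median centring over the tested probes and other scalings between arrays were added after seeing the data.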

Additional observations from a re-analysis of the deposited data

How the results depend on the processing

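The W23 log2 ratio of every AM1 probe stayed above 0 under all 16 alternatives, from 0.26 to 1.40 for A_92_P001166, 0.82 to 3.75 for A_92_P016751 and 0.81 to 3.91 for A_92_P038130. Not all of these could have changed the direction. Other filters, another variance prior and the unpaired fits reuse the same normalized values, so their ratios were the same. Leaving out 1 sample could not bring a ratio to 0, since the groups did not overlap in these levels. The causes of lost calls were not tested. A_92_P016751 (0.82) and A_92_P038130 (0.81) lost the limma call only with the authors' value table. A_92_P001166 lost it there (0.26), from processed signals (1.40), after median centring (0.27) and after centring on the median of tested probes (0.43, adjusted p = 0.101 in limma). A separate-channel fit without the pairing kept all 3 calls. With the dye as a covariate in that unpaired fit A_92_P001166 lost its call (0.40, limma adjusted p = 0.111), and so it did whichever of the 4 samples was left out, at 0.34 to 0.46 (limma adjusted p = 0.0952 to 0.17).

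Counts over all probes called higher and lower in W23 pre-meiotic cells, 5092 and 6567, were 3061 and 5103 with an offset of 0, 1068 and 2849 from processed signals, 724 and 10614 after median centring, 1582 and 9094 after centring on tested probes, 1131 and 3802 with the authors' table, 3596 and 4975 in the unpaired fit and 1298 and 2039 with the dye added. With 1 sample left out they were 1487 to 1875 and 1939 to 3072. The share of calls that were lower was 56.3% in the first and 93.6% with median centring, which put the median of all tested probes at -0.15.

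On the mac1 array the AM1 values that moved by more than the spread between W23 arrays were those of A_92_P001166 (0.12 with an offset of 0, -0.037 with processed signals, -0.051 with median centring and -0.02 with it over the tested probes), A_92_P016751 with an offset of 0 (0.47) and A_92_P038130 with processed signals (-0.61). That spread is a rough yardstick, an SD from 2 arrays. It was 0.0455 for A_92_P001166, against 0.226 for A_92_P016751 and 0.227 for A_92_P038130. Subtracting the mean Cy5 over Cy3 ratio could not exceed it, since both come from the same difference. Probes at least 2-fold higher and lower in the mutant numbered 252 and 179, and 1602 and 1955 with an offset of 0, 481 and 325 with 16, 2415 and 4767 with processed signals. The lower ones were 289 with median centring and 943 with the authors' table. Without scaling between arrays, mac1 mutant minus W23 pre-meiotic levels were -0.09, -0.38 and -0.27, and heterozygote minus W23 -0.15, -0.61 and -0.088, on A_92_P001166, A_92_P016751 and A_92_P038130. Of the 5 probes most like AM1, 1 stayed with an offset of 0, 1 with correlation and 1 without scaling. Of 13 tested probes of the listed cohesion genes, 4 were called lower in the first fit. With an offset of 0 it was 2, and with median centring 7. Among all 33646 tested probes 6567, 5103 and 10614 were called lower in these fits.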
